A study of Mus musculus with 6 samples.

Results

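The genes described here code for interleukin-6 family cytokines, their receptors and the signalling proteins behind them, in 4TO7 cells with Six2 overexpression. The 10 genes, Il6, Il11, Lif, Il6ra, Il6st, Il11ra1, Lifr, Osmr, Stat3 and Socs3, were chosen by name from this family, and each was read from the probe sets that the platform annotation assigned to it alone. They were 10 of 20848 genes on the array and held 119 of its 241576 probe sets.

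Cytokines of this family bind a receptor chain of their own and then a shared chain, the product of Il6st. Interleukin-6 uses Il6ra, interleukin-11 uses Il11ra1, leukaemia inhibitory factor (Lif) uses Lifr, and in the mouse oncostatin M uses Osmr. JAK kinases on the shared chain then phosphorylate Stat3, a transcription factor, and Stat3 induces Socs3, which shuts the receptor off. In the mammary gland Lif and Stat3 are known for starting involution, the regression of the gland after weaning, and in breast tumours the family is studied for its part in survival and metastasis.

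RNA was measured on 6 arrays. In 3 of them the 4TO7 cells had been transduced with Six2 overexpression (Six2), and in the other 3 with pcDNA, an empty expression vector (control). 4TO7 is a mouse mammary tumour cell line, so all 6 arrays share its genetic background. The labels name no treatment, and they give neither the species of the Six2 insert nor whether the cells were a clone or a pool. Nothing in the labels says that replicates were separate cultures, so the p-values rest on the scatter among arrays, part or all of which may be technical. The study concerns Six2, a homeobox transcription factor, and the control of E-cadherin, and the comparison here asks which genes of the cytokine family differed between the groups.

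All values are log2 signals. A gene counted as changed where its limma p-value, adjusted by Benjamini-Hochberg over all 20848 genes, was under 0.05, and the same rule was used over all 241576 probe sets. A gene was called dim where its mean over the 6 arrays was 6 or less, close to the median of the arrays, which lay between 5.83 and 5.91. Levels of different probe sets or genes were ranked or sorted by signal only, and were not read as relative amounts of RNA, since probes differ in affinity.

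Pearson correlations across gene values were at least 0.992 within the Six2 group, at least 0.994 within the control group and at most 0.987 between groups. Cdh1, the E-cadherin gene, was at 4.41 ± 0.17 in Six2 arrays and 7.57 ± 0.11 in control arrays (SD, n = 3 each) and fell 8.91-fold (limma adjusted p = 6.556e-05). Six2 itself had 3.60, 3.94 and 4.03 in the Six2 arrays, against 3.69, 3.25 and 3.62 in the control arrays, with overlapping groups and a difference of 0.33 that did not pass (limma adjusted p = 0.215). Whether the insert is of mouse sequence is not given in the labels. In place of the median over its 4 probe sets, Six2 passed with their mean (0.39, limma adjusted p = 0.0242). At 1.19 it also passed when dim probe sets were left out (limma adjusted p = 0.0276) and when the brightest stood for the gene (limma adjusted p = 0.0479). Both of these settings rest on probe set 10453397 alone, which did not pass over all probe sets (limma adjusted p = 0.0908). The groups did not overlap there, nor in probe set 10453395 (0.80) and, with Six2 lower, probe set 10453398 (-0.60). Neither of these 2 passed. Every direction below rests on the labels.

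Promoter sequences are shown for the cytokine whose value rose (Il11), for the signal transducer whose value fell (Stat3), for its feedback inhibitor (Socs3) and for Il6, whose promoter is a textbook NF-kB target. Each is the 250 bases before the annotated start of the gene in RefSeq on build GRCm38.p6, read 5′ to 3′ on the strand of the gene. Il11 has 2 annotated starts, and its window at chr7:4778142-4778391 (minus strand) is shown. The others are at chr11:100939541-100939790 (Stat3, minus strand), chr11:117969367-117969616 (Socs3, minus strand) and chr5:30012864-30013113 (Il6, plus strand). Capitals mark letters that match TTCNNNGAA (STAT), TGANTCA (AP-1) or GGG, any 5 bases and CC (NF-kB), searched on both strands.
Il11: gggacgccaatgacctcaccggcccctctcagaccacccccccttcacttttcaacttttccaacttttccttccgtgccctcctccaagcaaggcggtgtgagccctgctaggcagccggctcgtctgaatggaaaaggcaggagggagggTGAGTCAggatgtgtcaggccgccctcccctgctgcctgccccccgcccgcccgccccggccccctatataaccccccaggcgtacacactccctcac
Stat3: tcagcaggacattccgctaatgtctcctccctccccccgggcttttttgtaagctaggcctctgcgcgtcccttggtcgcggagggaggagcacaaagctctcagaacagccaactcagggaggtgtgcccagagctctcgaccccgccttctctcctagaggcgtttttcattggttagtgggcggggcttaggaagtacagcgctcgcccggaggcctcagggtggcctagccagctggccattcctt
Socs3: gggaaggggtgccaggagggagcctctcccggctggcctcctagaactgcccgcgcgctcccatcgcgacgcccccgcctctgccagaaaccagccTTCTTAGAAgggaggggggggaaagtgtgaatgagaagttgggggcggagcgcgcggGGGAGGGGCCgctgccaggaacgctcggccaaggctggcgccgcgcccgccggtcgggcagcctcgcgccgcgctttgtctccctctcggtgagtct
Il6: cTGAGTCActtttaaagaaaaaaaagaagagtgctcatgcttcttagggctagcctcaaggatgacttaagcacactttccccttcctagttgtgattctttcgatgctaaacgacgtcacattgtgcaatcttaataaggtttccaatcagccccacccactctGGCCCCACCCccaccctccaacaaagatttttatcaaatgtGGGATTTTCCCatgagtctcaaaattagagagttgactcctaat
The Il11 window shown held a single match, TGAGTCA, the AP-1 letters, 98 to 92 bases before the start. The window at the other Il11 start, chr7:4782858-4783107, held 2 overlapping NF-kB matches and no AP-1 or STAT match. The Stat3 window held none of the 3 motifs. In the Socs3 window the STAT letters TTCTTAGAA lay 154 to 146 bases before the start, and an NF-kB match began 97 bases before it. The Il6 window held an AP-1 match 249 to 243 bases before the start and 3 NF-kB matches, of which 2 overlap in the run GGGATTTTCCC.

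All 10 genes matched an entry in RefSeq, with 13 windows of 300 bases in all, each running from 250 bases before a start to shortly after it. The STAT letters were in 1 of the 13 windows, that of Socs3, and in 8.3% of the 32851 mouse promoter windows of the same length. The AP-1 letters were in 4 of the 13 windows, of 4 genes (Il6, Il11, Lif and Osmr), and in 7.81% of all windows. The NF-kB letters were in 10 of the 13 windows, of 9 genes, and in 50.8% of all windows. These are matches of letters, not sites, and the AP-1 motif was added after the sequences had been seen.

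Of the 10 genes, Il11 rose and Stat3 fell, and the other 8 did not pass the test. On the whole array 14.7% of genes were called, 6.7% as higher and 8.02% as lower, so 2 of 10 is close to the background. Among genes with a mean above 6, to which 5 of the 10 belong (Il11, Il6ra, Il6st, Stat3 and Socs3), 24.6% were called, 12.2% as higher and 12.4% as lower. The median difference, Six2 minus control, was -0.01 over the 10 genes and -0.05 over all genes. The arrays of the groups did not overlap in 3 of the 10 genes, higher in Six2 for Il11 and Il6ra and lower for Stat3. Such separation held for 35.8% of all genes, 15.7% with Six2 higher and 20.1% with Six2 lower. With 3 arrays against 3, an exact two-sided permutation test cannot give a p below 0.1, which is the value for each of these 3 genes.

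**Figure D1:**
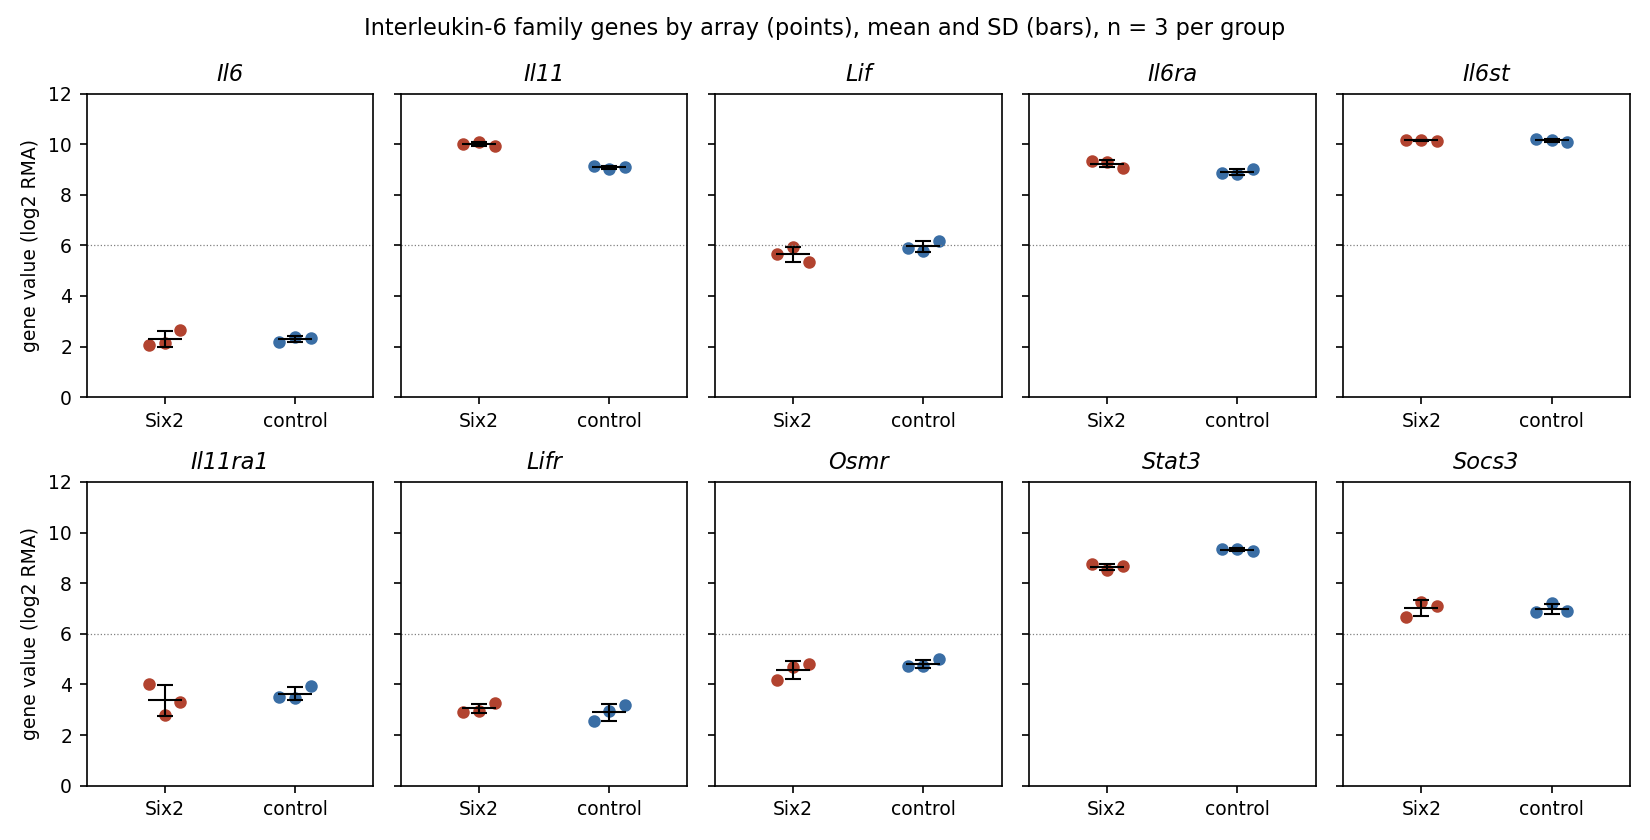
Gene value (log2) of each of the 10 genes on the 3 Six2 arrays (red) and the 3 control arrays (blue), with the mean and SD as bars and a dotted line at 6. Il11 lies near 10 in Six2 arrays and near 9 in control arrays, Stat3 lies lower in Six2 arrays, and the points of most other genes overlap.

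**Figure D2:**
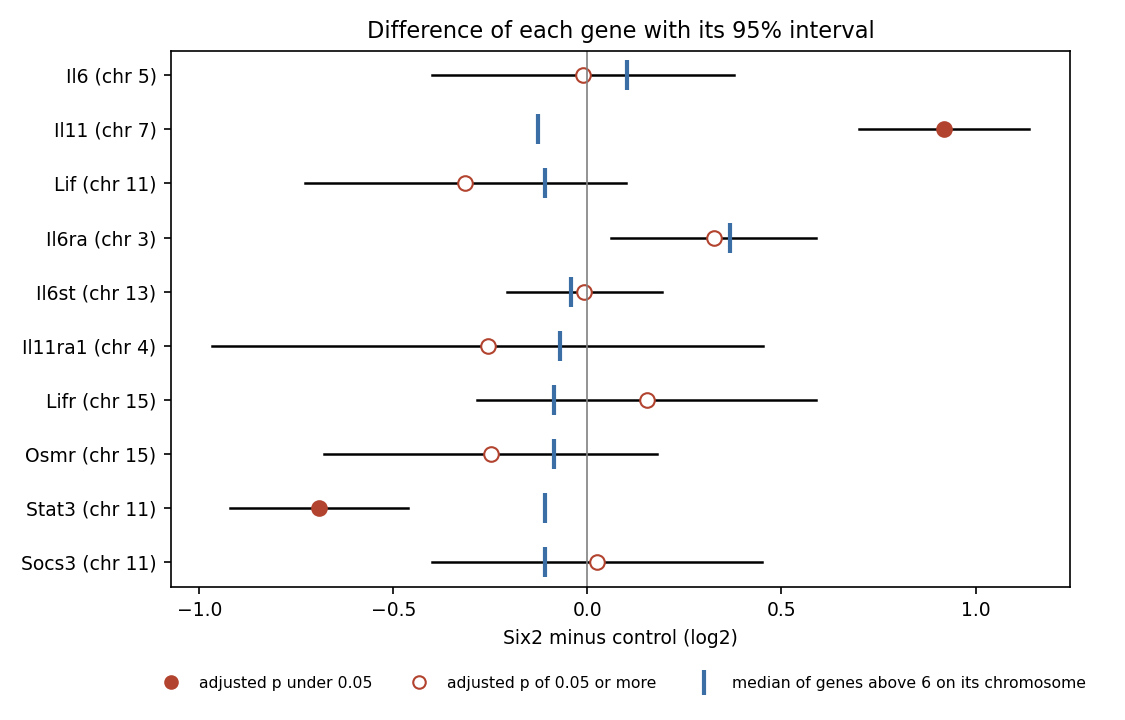
Difference of each gene (Six2 minus control, log2) with its 95% interval, filled where the limma adjusted p was under 0.05. Blue ticks give the median difference of the genes with a mean above 6 on the same chromosome, which for Il6ra lies at 0.37, beside its own difference of 0.33.

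Among the ligands, Il11, a cytokine of bone, stroma and many carcinomas, was the member that rose. It had 10.01, 10.08 and 9.91 in the Six2 arrays, against 9.14, 9.0 and 9.10 in the control arrays. The lowest Six2 array thus stood above the highest control array. The means were 10.001 ± 0.085 in Six2 and 9.082 ± 0.073 in control arrays (SD, n = 3 each), a 1.89-fold rise (log2 difference 0.92, SE 0.09, 95% interval 0.70 to 1.14, limma adjusted p = 0.0017). All 5 Il11 probe sets rose, by 0.87 to 0.95, with limma adjusted p-values of 0.0256 to 0.0456 over all probe sets, where 2.8% were called and 1.2% as higher. The brightest of them had 10.42 in Six2 and 9.55 in control arrays. Where these probe sets lie in the transcript was not determined here.

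Il6 was dim in both groups. It had 2.08, 2.13 and 2.65 in the Six2 arrays, against 2.17, 2.37 and 2.35 in the control arrays, and the groups overlapped. The difference was -0.01 (95% interval -0.40 to 0.38, limma adjusted p = 0.974). All 6 Il6 probe sets lay at or below the 30th percentile of probe set means on the array, which was 3.98, so a difference in Il6 was hardly measurable here. The probe set differences ran from -0.41 to 0.59 and none passed.

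Lif had 5.66, 5.93 and 5.34 in the Six2 arrays, against 5.91, 5.77 and 6.18 in the control arrays. The groups overlapped, and the difference of -0.31 (95% interval -0.73 to 0.10) did not pass (limma adjusted p = 0.282). Its 5 probe sets did not move alike. Probe set 10373919, the dimmest, was at 4.26 in Six2 and 3.35 in control arrays, a difference of 0.90 (limma adjusted p = 0.128). Probe set 10373923 was at 5.32 in Six2 and 5.96 in control arrays, a difference of -0.64 (limma adjusted p = 0.168). In both of these the groups did not overlap. Unequal change among the probe sets of Lif did not pass in a test with a variance for each probe set (adjusted p = 0.268), but passed with diffSplice, which assumes a common variance within a gene (adjusted p = 0.0063). The per-probe-set test called 0 of 18212 genes (2822 at an unadjusted p under 0.05, Lif among them), and diffSplice called 14.1% of them.

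Among the receptors, Il6st, the signalling chain shared by the family, was nearly level. It had 10.17, 10.16 and 10.12 in the Six2 arrays, against 10.22, 10.17 and 10.09 in the control arrays, with overlapping groups. The difference was -0.01 with a 95% interval of -0.21 to 0.19 (limma adjusted p = 0.965), the narrowest interval of the 10 genes. Its 18 probe sets had differences of -0.27 to 0.12, and none passed.

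Il6ra, the ligand-binding chain for interleukin-6, had 9.33, 9.28 and 9.06 in the Six2 arrays, against 8.85, 8.82 and 9.02 in the control arrays. Every Six2 array stood above every control array, by a small margin between Six2 replicate 3 and control replicate 3. The difference of 0.33 (SE 0.11, 95% interval 0.06 to 0.59), 1.25-fold, did not pass (limma adjusted p = 0.0991). All 10 probe sets were higher on average in Six2 arrays, by 0.08 to 0.72, with non-overlapping groups in 6 of 10, against 14.6% of all probe sets with Six2 higher, and none past the threshold. The largest was probe set 10499662, at 6.94 in Six2 and 6.22 in control arrays. The gene lies on chromosome 3, where the median difference of 419 genes with a mean above 6 was 0.37. With that median subtracted, the difference of Il6ra was -0.04. Il6ra passed with the mean over its probe sets (0.32, limma adjusted p = 0.0156) and with a variance trend and robust variance (0.33, limma adjusted p = 0.0275).

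Il11ra1, the ligand-binding chain for interleukin-11, was read from 1 probe set, which was dim. It had 4.02, 2.79 and 3.31 in the Six2 arrays, against 3.50, 3.46 and 3.92 in the control arrays. The groups overlapped, and the Six2 arrays held both the highest and the lowest value. The difference was -0.26 with a wide 95% interval of -0.97 to 0.45 (limma adjusted p = 0.625). A further 43 probe sets name Il11ra1 together with its near-identical copies and did not enter the value of Il11ra1, since their signal cannot be assigned to a single copy.

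Lifr, the receptor chain for Lif, was dim and overlapped between groups, with 2.92, 2.96 and 3.27 in the Six2 arrays and 2.54, 2.95 and 3.21 in the control arrays. The difference was 0.15 (95% interval -0.28 to 0.59, limma adjusted p = 0.637). Of its 21 probe sets 4 lay above the 30th percentile. The brightest, probe set 10422823, was at 6.70 in Six2 and 6.07 in control arrays, with overlapping groups. The largest fall was in probe set 10422840, at 3.645 in Six2 and 4.675 in control arrays (-1.03, limma adjusted p = 0.177). The largest rise was in probe set 10422829 (0.765), with overlapping groups. In 2 of the 21 the groups did not overlap, both with Six2 lower, against 15.2% of all probe sets. No Lifr probe set passed.

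Osmr, the receptor chain for oncostatin M, had 4.18, 4.71 and 4.82 in the Six2 arrays, against 4.73, 4.71 and 5.01 in the control arrays. The groups overlapped, and the difference of -0.25 (95% interval -0.68 to 0.18) did not pass (limma adjusted p = 0.414). Its brightest probe set, 10427482, had 6.13, 5.90 and 5.44 in the Six2 arrays, against 6.53, 7.20 and 7.31 in the control arrays. These groups did not overlap, and the difference of -1.19 did not pass over all probe sets (limma adjusted p = 0.0837). Osmr passed when that probe set stood for the gene (-1.19, limma adjusted p = 0.0421) and with the mean over its 19 probe sets (-0.47, limma adjusted p = 0.038).

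Stat3, the transcription factor on which the pathway converges, was the member that fell. It had 8.75, 8.51 and 8.66 in the Six2 arrays, against 9.36, 9.34 and 9.28 in the control arrays. The highest Six2 array stood well below the lowest control array. The means were 8.64 ± 0.12 in Six2 and 9.33 ± 0.04 in control arrays (SD, n = 3 each), a 1.61-fold fall (log2 difference -0.69, SE 0.10, 95% interval -0.92 to -0.46, limma adjusted p = 0.00567). With the median of chromosome 11 (-0.11) subtracted, the difference was -0.58. These are mRNA values, and phosphorylated Stat3 was not measured.

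Of the 30 Stat3 probe sets 3 fell past the threshold and none rose, where 1.6% of all probe sets were called as lower. In 22 of 30 the groups did not overlap, all with Six2 lower, against 15.2% of all probe sets (29.8% separate in either direction). The largest fall was in probe set 10391314, which had 8.33, 8.49 and 8.10 in the Six2 arrays, against 9.42, 9.46 and 9.48 in the control arrays (difference -1.15, limma adjusted p = 0.0259). The brightest probe set, 10391328, differed by -0.62. The probe set with the largest difference upward was 10391331 (difference 1.78, limma adjusted p = 0.184), with overlapping groups. Its signal was low, though above the 30th percentile, and scattered, at 5.22 ± 1.05 in Six2 and 3.44 ± 0.85 in control arrays (SD, n = 3 each). Unequal change among the Stat3 probe sets did not pass with a variance for each probe set (adjusted p = 0.501), and passed with diffSplice (adjusted p = 4.963e-13). Over the 10 genes 8 probe sets were called, 5 of Il11 and 3 of Stat3, against 2.8% of all probe sets. With any of the 6 arrays left out no member probe set passed (30 to 44 of the 119 had an unadjusted p under 0.05), but there the test called 0 probe sets of the whole table without a control array and at most 0.499% without a Six2 array.

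Socs3, the feedback inhibitor that Stat3 induces, had 6.66, 7.28 and 7.11 in the Six2 arrays, against 6.86, 7.21 and 6.90 in the control arrays. The Six2 values spread over both sides of the control values, and the difference was 0.02 (95% interval -0.40 to 0.45, limma adjusted p = 0.949). Its 4 probe sets had differences of -0.19 to 0.26, and none passed. The sign of this difference turned under several settings, so it carries no direction.

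**Figure D3:**
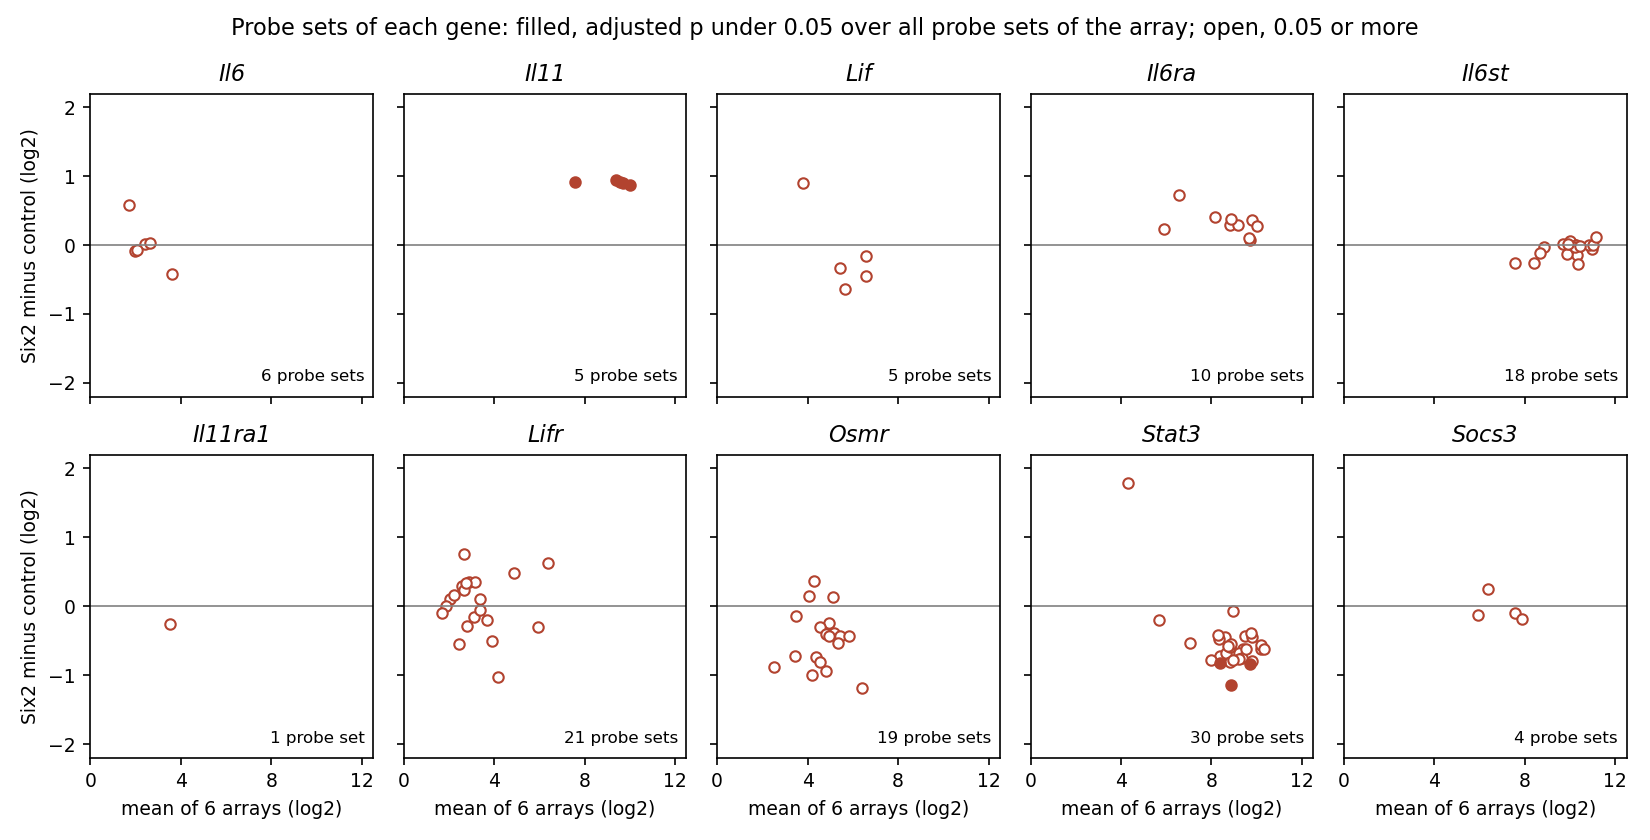
Every probe set of the 10 genes, with its mean over the 6 arrays (log2) across and its difference (Six2 minus control, log2) upward, filled where the limma adjusted p over all probe sets was under 0.05. The 5 Il11 probe sets lie together near 0.9, most Stat3 probe sets lie between -0.4 and -0.9, and the Il6 and most Lifr probe sets sit at low signal.

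For each member that changed, the 3 genes with the most similar profile were sought among 8974 genes with a mean above 6, by the root mean square difference of values centred on the mean of each gene over 6 arrays. For Il11 these were Slc41a1, a magnesium transporter (0.023), Hbegf, a ligand of the EGF receptor (0.058), and Mid1, a ubiquitin ligase (0.061). Their own differences were 0.93, 0.89 and 0.88. For Stat3 they were Nqo1, a quinone reductase (0.042), Fez2 (0.046) and Hagh, an enzyme of methylglyoxal breakdown (0.049), with differences of -0.73, -0.77 and -0.66. These were picked for likeness over the same arrays and are a description.

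The rest of the pathway was read from lists of known genes, which held 107 measured genes besides the 10, of which 8 rose and 18 fell. On the whole array 6.7% of genes were called as higher and 8.02% as lower. Among genes with a mean above 6 these shares were 12.2% and 12.4%. Each list count below stands beside these shares, and the lists were drawn up with earlier results of these data known. Of 7 other ligands of the family none passed (median difference -0.21). The groups did not overlap in 3 of the 7, against 35.8% of all genes. Clcf1, a neurotrophic cytokine of the family, was higher, at 9.75 ± 0.15 in Six2 and 9.43 ± 0.05 in control arrays (SD, n = 3 each), without passing (limma adjusted p = 0.0858). Ctf1 (-0.30, limma adjusted p = 0.156) and Ctf2 (-0.22, limma adjusted p = 0.194) were lower in every Six2 array. Osm, the ligand of Osmr, was dim at 2.77 in Six2 and 3.40 in control arrays (limma adjusted p = 0.0844). None of 3 other receptors passed, and all 3 were dim.

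Of 8 measured JAK kinases, other STATs and adaptors 1 fell and none rose (median difference -0.07). Jak2, a kinase bound to these receptors, was at 8.13 ± 0.10 in Six2 and 8.61 ± 0.10 in control arrays (SD, n = 3 each) and fell by 0.48 (limma adjusted p = 0.0225). It did not pass without Six2 replicate 1, Six2 replicate 2, control replicate 1 or control replicate 3 (differences -0.43 to -0.54 over the 6 arrays left out in turn), nor with the chromosome median subtracted (-0.30). Jak1 differed by -0.15 (limma adjusted p = 0.294) and did not pass. Of 14 other negative regulators, the remaining SOCS, PIAS and phosphatase genes, none passed (median difference 0.05).

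Known Stat3 target genes moved both ways. Of 27 measured, the member Lif among them, 4 rose, 4 fell and 19 did not pass, with a median difference of 0.01. Among all genes with a mean above 6, as 20 of the 27 had, 12.2% were called as higher and 12.4% as lower. Fosl1, an AP-1 subunit, rose to 9.79 ± 0.05 in Six2 arrays, against 9.15 ± 0.02 in control arrays (SD, n = 3 each; limma adjusted p = 0.0039). Il4ra, the interleukin-4 receptor chain, fell to 6.24 ± 0.13 in Six2 arrays, against 7.67 ± 0.20 in control arrays (SD, n = 3 each; difference -1.44, limma adjusted p = 0.00112). Cebpb, a transcription factor read from 1 probe set, fell by 0.60 (limma adjusted p = 0.00533), and these 3 calls held in all 15 alternative settings. With 1 probe set, the settings that change how probe sets are combined or left out could not move the difference of Cebpb.

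The other called Stat3 targets held less firmly. Pim1, a survival kinase, fell by 0.69 (limma adjusted p = 0.00916), but did not pass with the median of its chromosome subtracted (-0.43) or with its brightest probe set (-0.45). Mcl1, a survival factor of the Bcl2 family, rose by 0.52 (limma adjusted p = 0.0234), against 0.15 with the median of chromosome 3 subtracted. Hif1a, the hypoxia factor, rose by 0.34 (limma adjusted p = 0.0348), against 0.13 with the median of its chromosome subtracted. Vegfa, an angiogenic factor, fell by 0.42 (limma adjusted p = 0.0231), against -0.16 with the median of its chromosome subtracted. Mmp9, a matrix protease, was dim and rose by 0.75 (limma adjusted p = 0.017), but did not pass without Six2 replicate 1, control replicate 1 or control replicate 2 (adjusted p up to 0.0639), nor with its brightest probe set (0.61). Hif1a did not pass when any of the 6 arrays was left out (adjusted p 0.0595 to 0.108). Vegfa passed only without Six2 replicate 2, and Mcl1 passed only without Six2 replicate 1 or control replicate 1, where 1 array was left out.

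Among 21 acute phase genes, the liver's classical response to interleukin-6, none rose and 4 fell, but only 3 of the 21 had a mean above 6. Over all genes 8.02% were called as lower. Lcn2, lipocalin 2, an iron-siderophore carrier of epithelia, fell to 5.21 ± 0.23 in Six2 arrays, against 9.24 ± 0.15 in control arrays (SD, n = 3 each; difference -4.03, limma adjusted p = 6.556e-05). Lbp, which carries bacterial lipopolysaccharide, fell to 4.42 in Six2 arrays, against 6.72 in control arrays (limma adjusted p = 0.000462). C3, the central complement component, fell to 5.77 in Six2 arrays, against 7.68 in control arrays (limma adjusted p = 0.000462). Serpina3g, a protease inhibitor, was dim at 2.58 in Six2 and 3.01 in control arrays, and its fall (limma adjusted p = 0.0283) was at 0.23 with its brightest probe set. It passed only without Six2 replicate 3 when 1 array was left out.

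Of 19 measured genes of mammary involution 8 fell and 1 rose, and the list itself includes Lif, Stat3, Osmr and Socs3. Over all genes 8.02% were called as lower and 6.7% as higher. Among genes with a mean above 6, as 12 of the 19 had, the shares were 12.4% and 12.2%. The list was drawn up with earlier results of these data known, so its count is a description. Besides Lcn2, Il4ra and Stat3, Timp3, an inhibitor of matrix proteases, fell to 3.82 in Six2 arrays, against 6.31 in control arrays (difference -2.49, limma adjusted p = 6.556e-05). Cd14, the lipopolysaccharide co-receptor, fell to 7.09 in Six2 arrays, against 8.95 in control arrays (limma adjusted p = 0.00027). Mmp3, stromelysin, rose to 11.40 in Six2 arrays, against 10.85 in control arrays (limma adjusted p = 0.00711). The milk genes Wap and Csn2 were dim in both groups. The median difference of this list was -0.25.

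Of 19 genes upstream of Il6, the interleukin-1, TNF, NF-kB and AP-1 genes, 4 rose and 5 fell (median difference 0.05). Among all genes with a mean above 6, as 15 of the 19 had, 12.2% were called as higher and 12.4% as lower. Nfkbia, the NF-kB inhibitor, rose to 8.90 in Six2 arrays, against 8.17 in control arrays (limma adjusted p = 0.00259). Nfkb1, an NF-kB subunit, rose to 8.96 in Six2 arrays, against 8.28 in control arrays (limma adjusted p = 0.00469), but was at 0.31 and did not pass with the median of chromosome 3 subtracted. Rel, another subunit, rose by 0.86 (limma adjusted p = 0.0328) and, with 1 array left out, passed only without control replicate 3. The cytokines Il1a and Tnf fell by 1.11 each (limma adjusted p = 0.0033 and 0.00341), both from low signal, at 3.17 and 3.38 in Six2 arrays, against 4.28 and 4.49 in control arrays. With its brightest probe set Il1a was at -0.85 and did not pass. Tgfb1 fell by 0.33 (limma adjusted p = 0.0392) and did not pass when any of the 6 arrays was left out (adjusted p 0.079 to 0.124).

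**Figure D4:**
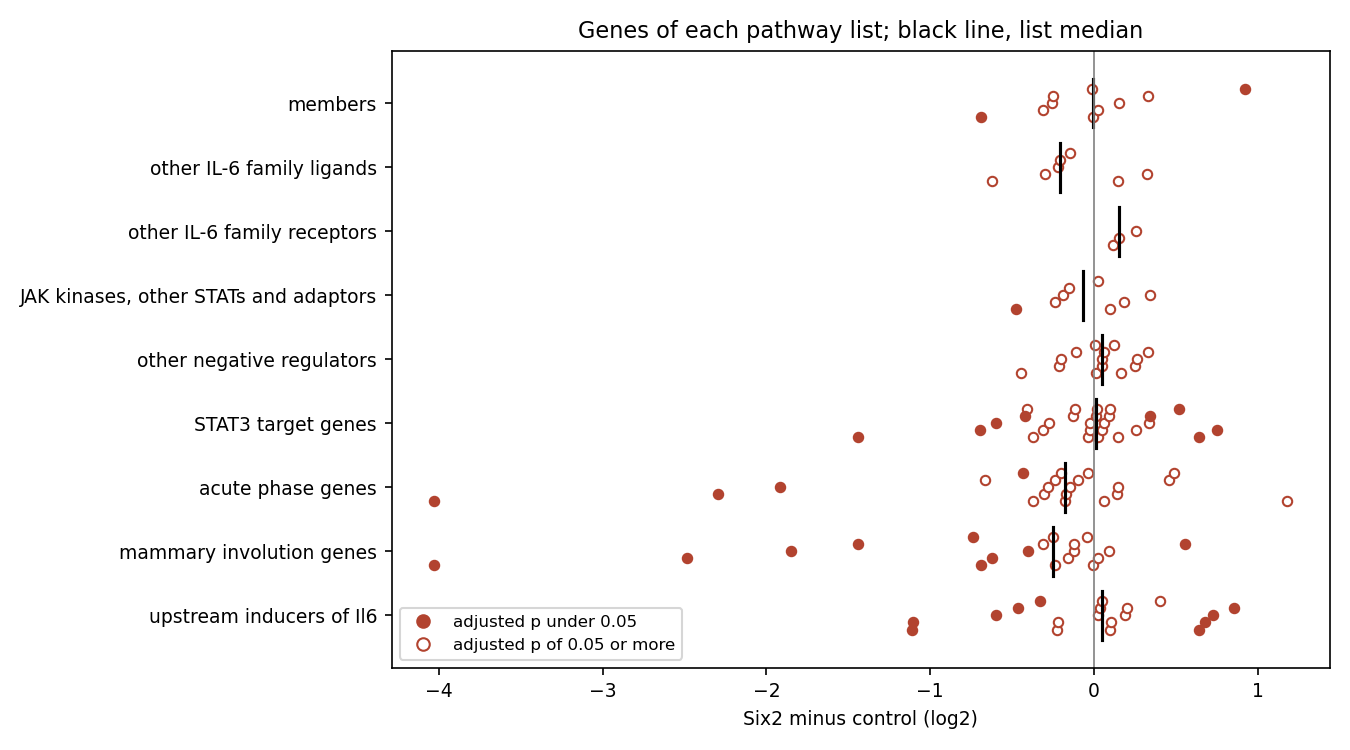
Difference of every measured gene of each list (Six2 minus control, log2), filled where the limma adjusted p was under 0.05, with the list median as a black line. The medians of the lists drawn here, cell type markers not among them, lie between -0.25 and 0.15, while single genes reach -4.03 (Lcn2).

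Markers of the cell types a mammary culture could hold were read on the same arrays. Of 11 luminal epithelial markers 4 fell (Krt8, Krt18, Krt19 and Cdh1), 7 did not pass and none rose, with a median difference of -0.50. Over all genes 8.02% were called as lower, and 12.4% of those with a mean above 6. Among those that did not pass, Gata3 was at 9.83 in Six2 and 9.79 in control arrays, and Esr1 and Cldn4 had differences of 0.39 and 0.08. The rest had negative differences, -0.75 for Epcam, -0.50 for Cldn3, -0.22 for Elf5 and -0.21 for Foxa1. For Epcam and Cldn3 every Six2 array stood below every control array. Cdh1 alone differed by -3.15. Their summed log2 level was 65.6 to 66.4 in Six2 arrays and 71.1 to 74.2 in control arrays. Krt8 and Krt18, the keratins of simple epithelia, remained at 11.77 and 10.93 in Six2 arrays, against 12.33 and 11.74 in control arrays, so these keratins stayed bright in both groups, while Epcam was dim in both. Krt8 was at -0.42 and did not pass with its brightest probe set. No basal (7), endothelial (8) or adipocyte (5) marker passed, and all of these were dim. Summed levels were 25.7 to 26.9 in Six2 and 25.5 to 26.4 in control arrays for the basal markers. They were 28.2 to 29.0 in Six2 and 28.5 to 30.3 in control arrays for the endothelial markers, and 16.5 to 19.1 in Six2 and 17.8 to 19.1 in control arrays for the adipocyte markers.

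Among 9 fibroblast markers Lum fell, from a dim signal, and the sums were 36.2 to 38.2 in Six2 and 37.9 to 38.6 in control arrays. Among 9 leukocyte markers Ptprc and Adgre1 fell, both dim, and none rose, where 8.02% of all genes were called as lower. Cd68, the 1 marker of the 9 with a mean above 6, was at 6.71 in Six2 and 7.27 in control arrays. Every Six2 array stood below every control array there, as in 20.1% of all genes, but Cd68 did not pass (limma adjusted p = 0.0851). Cd3e (0.565) and Itgam (0.197) were higher on average in Six2 arrays without passing. The sums of the leukocyte markers were 34.2 to 36.3 in Six2 and 36.0 to 37.1 in control arrays. With 1 array left out, Ptprc passed only without control replicate 3, Adgre1 only without Six2 replicate 1 or control replicate 2, and Lum only without Six2 replicate 3 or control replicate 3. The 4 luminal markers that fell moved with the groups, as Il11 and Stat3 did, and their part in those differences was not tested. In such bulk samples, fewer cells that express a gene and less of its RNA per cell cannot be told apart.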

How the data were processed

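RNA of 6 arrays, 3 per group, was extracted with Trizol, and 6 ug of it was labelled as biotin cRNA, per the labels' protocols. The deposited values are on the log2 scale. Affymetrix Power Tools and RMA are named in the submitters' processing notes, while tool versions and build are not given there. RMA corrects background, quantile-normalizes arrays and summarises probes, so a change in total RNA per cell is not visible and differences of dim genes are compressed. The number of arrays limits the precision. Arrays with identical values were not found (0 pairs).

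The platform annotation gave 1 gene symbol to 213361 probe sets, several to 5107 and none to 23108, with symbols updated through RefSeq (GRCm38.p6; 43 symbols were not found there). Each gene took the median of the probe sets that carry only its symbol (8 per gene at the median). Six2 and control arrays were compared with limma 3.58.1 in R 4.3.3 (data.table package, version 1.17.8), with lmFit and eBayes, and calls used a two-sided p adjusted by Benjamini-Hochberg, over all genes or all probe sets, under 0.05. SE is the moderated standard error. Unequal change within a gene was tested by setting each probe set against the mean of the others, with Simes p-values. Motifs and figures used python 3.11.15, pandas 2.3.3 and matplotlib 3.10.9. The gene test and the tests of unequal change were also run on simulated data with independent noise for each gene or probe set. That simulation held no effect shared by an array, a batch or a chromosome.

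The members, lists and tests were chosen with earlier results of these data known. Named genes were the members, Six2, Cdh1, up to 4 called genes per list and direction by smallest p, the 3 nearest profiles of each called member, and the brightest and most changed probe sets. Other genes named as examples (Clcf1, Ctf1, Ctf2, Osm, Jak1, Epcam, Gata3, Esr1, Cldn3, Cldn4, Elf5, Foxa1, Cd68, Cd3e, Itgam, Wap and Csn2) were chosen after their values were seen. Alternatives were the mean or brightest probe set, leaving out probe sets at or below the 30th percentile, quantile normalization, centring, chromosome medians subtracted, the replicate number as a block, each array left out in turn, robust variance with a trend, and unmoderated variance. A planned search for motifs in proteins was not run here. Scan dates were not used here, and a batch shared by a whole group cannot be told apart from the group.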

Additional observations from a re-analysis of the deposited data

Results flagged for a closer look

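Signal higher in every Six2 array than in every control array was found in some probe sets that entered no member's value, those named for Il11ra1 together with Il11ra2, Gm13305 and Gm2002. The 43 such probe sets hold 15 distinct profiles, since each profile is listed more than once with identical values. In 4 of these every Six2 array stood above every control array, in 1 every Six2 array stood below, and 10 overlapped (differences -0.47 to 2.50, median 0.20). Across all probe sets 14.6% separate with Six2 higher and 15.2% with Six2 lower. None of the 15 passed the test (limma adjusted p over all probe sets).

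Probe set 10504110 was at 5.21 in Six2 and 4.40 in control arrays, a difference of 0.81 (limma adjusted p = 0.0817). Probe set 10504112 was at 6.62 in Six2 and 6.16 in control arrays, a difference of 0.46 (limma adjusted p = 0.22). Probe set 10504115 was at 5.15 in Six2 and 3.70 in control arrays, a difference of 1.44 (limma adjusted p = 0.15). Probe set 10504117 was at 5.24 ± 0.39 in Six2 and 2.74 ± 0.95 in control arrays (SD, n = 3 each), a difference of 2.50 (limma adjusted p = 0.0601). In the profile with Six2 lower, probe set 10504111 was at 4.62 in Six2 and 5.095 in control arrays, a difference of -0.47 (limma adjusted p = 0.106). Il11ra1 is the receptor chain of interleukin-11, and which copy gives these signals was not tested.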

How the results depend on the processing

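The rise of Il11 (0.87 to 1.05, limma adjusted p 1.439e-05 to 0.0175) and the fall of Stat3 (-0.75 to -0.53, adjusted p 0.000185 to 0.0288) held in all 15 alternatives. The mean over probe sets gave 4858 changed genes against 3068, and 4 changed members against 2 (Il6ra and Osmr besides). The brightest probe set gave 6 members without overlap (34.4% of all genes) against 3 (35.8%). Called probe sets of the members were 8 (2.8% of the whole table), against 25 with a variance trend (8.33%), 19 without dim probe sets (8.26%) and 0 with any array left out (0 to 0.499%), so these counts shift with the whole table. For members without overlap when an array was left out, the share of all genes was 42.5% to 48%. The test diffSplice found unequal change in 2 members against 0. Leaving out each array gave 1565 to 2447 changed genes, 3 to 5 members without overlap and 16 to 25 changed list genes against 26. The cause of these shifts was not tested, except that a fit with fewer arrays has fewer residual degrees of freedom.

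Among the named genes, signs turned only for members that had not passed and for Serpina3g. These were Il6 (0.007 with the mean, 0.015 with quantile normalization), Socs3 (-0.038 with the mean, -0.186 with the brightest probe set, -0.012 with quantile normalization, -0.002 centred), Il6st (0.121 with the brightest probe set), Serpina3g (0.232 with the brightest probe set or without dim ones), and, with chromosome medians subtracted, Il6ra (-0.042) and Il6st (0.035). With 1 array left out the ranges were -0.193 to 0.093 for Il6, -0.581 to 0.035 for Il11ra1, -0.106 to 0.203 for Socs3, -0.042 to 0.021 for Il6st and -0.027 to 0.307 for Lifr. Without dim probe sets, Il6, Il11ra1 and Lum had no value.

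The labels give the groups the same replicate numbers, but same-numbered arrays did not deviate together (r of -0.006, -0.008 and -0.054 across genes), so the numbers were not taken as pairs. With the number as a block, 1828 genes, 2 members, 18 list genes and 0 member probe sets were called. That fit called 0 probe sets in the whole table, with 47403 at an unadjusted p under 0.05, 40 of them of the members.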
